A study of Mus musculus with 30 samples.

Results

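The Polycomb repressive complex genes described here are the 10 that encode core subunits of the 2 complexes: Ezh1, Ezh2, Suz12 and Eed of PRC2, and Ring1, Rnf2, Bmi1, Cbx2, Cbx7 and Cbx8 of PRC1. They were chosen by name, out of 21887 protein-coding genes. Every peak with its summit inside one of them or within 5 kb was taken, which gave 34 of the 25651 peaks in 4 deposited peak lists. The lists come from chromatin immunoprecipitation and sequencing of Menin or UTX in WT-MA9 cells, mouse acute myeloid leukaemia cells that carry pMSCV-MLL-AF9-GFP, a retroviral vector for the MLL-AF9 fusion oncogene and GFP. Cells received MI-503, an inhibitor of the contact between Menin and MLL1, or the vehicle DMSO, and were collected on day 4. The 4 groups pair each antibody, Menin or UTX, with each treatment, and all carry the fusion and came from one cell line. Each had 1 library with a list, so no comparison between groups has a replicate check and no p-value is given. The labels name 30 libraries, and 26 were not analysed here. A peak list records places of enrichment, not expression: of 8 genes typical of myeloid cells, 6 were in the list for Menin in vehicle and 4 in that for UTX in drug, and of 8 fibroblast genes 0 and 1 were. The shares of all protein-coding genes in these lists were 42.9% and 48.3%. The 4 of 8 is thus near its share, and these counts do not identify the cells.

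Polycomb proteins keep developmental genes silent. PRC2 methylates histone H3 at lysine 27 through the catalytic subunit EZH2 or EZH1, with SUZ12 and EED as scaffold and reader. PRC1 attaches ubiquitin to histone H2A through RING1 or RNF2, and its chromobox subunits, the CBX proteins, read the mark that PRC2 leaves. Menin anchors MLL1 and MLL2, methyltransferases of the opposing trithorax group, on chromatin. UTX removes the PRC2 mark and works within the MLL3 and MLL4 complexes. PRC2 and CBX8 are known to support leukaemia driven by MLL-AF9, and BMI1, CBX7 and CBX8 to silence the Cdkn2a locus.

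The start regions of 9 of the 10 genes were matched in a RefSeq table of promoters (GRCm38.p6), each running from 250 bases before the annotated start to 50 bases from it on, and Cbx2 was not matched. The 6 shown are the starts with the highest peaks (Cbx8, Ezh2, Suz12 and Rnf2) and those with no UTX summit within 1 kb (Bmi1 and Cbx7). Capitals mark the letters CCAAT or, on the other strand, ATTGG, the core of the motif read by NF-Y, a factor whose subunit NF-YA was also immunoprecipitated in the series. They are Ezh2 (chr6:47594981-47595280, minus strand), Suz12 (chr11:79992856-79993155, plus), Rnf2 (chr1:151500942-151501241, minus), Bmi1 (chr2:18676768-18677067, plus), Cbx7 (chr15:79932597-79932896, minus) and Cbx8 (chr11:119040864-119041163, minus).
Ezh2: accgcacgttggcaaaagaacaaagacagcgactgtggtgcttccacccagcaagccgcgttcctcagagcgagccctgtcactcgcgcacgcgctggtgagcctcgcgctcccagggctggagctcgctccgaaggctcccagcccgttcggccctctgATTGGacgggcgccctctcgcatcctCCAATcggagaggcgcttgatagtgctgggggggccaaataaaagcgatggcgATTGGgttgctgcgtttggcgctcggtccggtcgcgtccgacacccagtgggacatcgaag
Suz12: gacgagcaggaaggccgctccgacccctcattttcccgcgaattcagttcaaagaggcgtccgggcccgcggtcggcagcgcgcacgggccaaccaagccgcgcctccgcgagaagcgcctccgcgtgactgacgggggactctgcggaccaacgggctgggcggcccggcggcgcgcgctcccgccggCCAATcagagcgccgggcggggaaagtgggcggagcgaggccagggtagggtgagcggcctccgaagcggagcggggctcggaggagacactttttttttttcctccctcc
Rnf2: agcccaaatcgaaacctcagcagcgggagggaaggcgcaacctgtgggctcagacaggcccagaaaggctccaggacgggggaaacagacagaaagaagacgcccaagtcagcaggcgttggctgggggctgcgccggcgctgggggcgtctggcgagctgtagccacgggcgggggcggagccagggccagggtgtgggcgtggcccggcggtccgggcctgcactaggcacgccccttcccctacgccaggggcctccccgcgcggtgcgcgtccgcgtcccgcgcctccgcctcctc
Bmi1: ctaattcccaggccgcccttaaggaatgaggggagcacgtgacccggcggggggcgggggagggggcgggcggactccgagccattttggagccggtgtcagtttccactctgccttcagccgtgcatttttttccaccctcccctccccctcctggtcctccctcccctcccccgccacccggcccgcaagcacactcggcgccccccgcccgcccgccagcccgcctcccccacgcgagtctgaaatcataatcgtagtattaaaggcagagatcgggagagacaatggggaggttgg
Cbx7: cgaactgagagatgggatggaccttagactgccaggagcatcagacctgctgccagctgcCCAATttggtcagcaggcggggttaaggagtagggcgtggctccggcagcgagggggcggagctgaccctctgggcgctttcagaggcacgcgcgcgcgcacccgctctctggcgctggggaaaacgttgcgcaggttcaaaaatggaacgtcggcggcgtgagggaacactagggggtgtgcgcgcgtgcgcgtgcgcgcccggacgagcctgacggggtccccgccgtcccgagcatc
Cbx8: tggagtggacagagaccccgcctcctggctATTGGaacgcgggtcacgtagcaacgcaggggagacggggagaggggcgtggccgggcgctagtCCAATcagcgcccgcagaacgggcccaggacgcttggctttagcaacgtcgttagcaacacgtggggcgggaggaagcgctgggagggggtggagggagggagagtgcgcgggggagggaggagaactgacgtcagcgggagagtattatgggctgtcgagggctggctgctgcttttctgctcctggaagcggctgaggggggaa

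CCAAT on either strand was found in 5 of the 9 windows, those of Ezh2, Suz12, Eed, Cbx7 and Cbx8, compared with 38.2% of 21263 windows of protein-coding genes. Ezh2 held 3 copies, whose first bases lay 90, 64 and 11 bp before the start, and 3.92% of all windows held 3 or more. Cbx8 held 2 copies, 220 and 156 bp before its start. Suz12 held 1 at 61 bp and Cbx7 1 at 190 bp before the start, and the copy of Eed lay 25 bp past its start. The GC box GGGCGG, on either strand, was found in 6 of the 9 windows, against 46.2% of all windows, with 6 copies in Bmi1, where some overlap others. Where the gene had a UTX MI-503 summit within 1 kb of its start, the share was 67.3%, and 31.6% where it had none. The 6 windows include those of Bmi1 and Cbx7, which had no such summit. The 6 of 9 thus mixes both kinds of gene and is not comparable with either share. The E2F-type letters TTTCGCGC, on either strand, were in 0 of the 9 and in 0.451% of all windows. These matches describe the letters of the windows and are not binding sites. All 9 windows were rich in CpG, with 17 in Eed at the low end and 41 in Suz12 at the high end, where the median of all windows was 13.

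Menin in vehicle had a peak at 9 of the 10 Polycomb genes, and UTX in MI-503 had one at all 10. The share of all protein-coding genes with a peak under the same rule was 42.9% in the former list and 48.3% in the latter. All 4 PRC2 genes were in both lists. Of the 6 PRC1 genes, 5 were in the Menin list and 6 in the UTX list, and Cbx2 was the gene without Menin. Both kinds of peak were present at 9 members, compared with 38% of all protein-coding genes. In the lists for Menin in MI-503 and UTX in DMSO, 0 of the 10 genes had a peak. Those lists are short, 8 and 217 peaks, and touched 0.0183% and 1.07% of all protein-coding genes, so 0 of 10 is what the length of these lists gives for most genes. Signal below the callers' threshold is not in a peak list, so the absence of a peak does not show the absence of the protein.

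**Figure D1:**
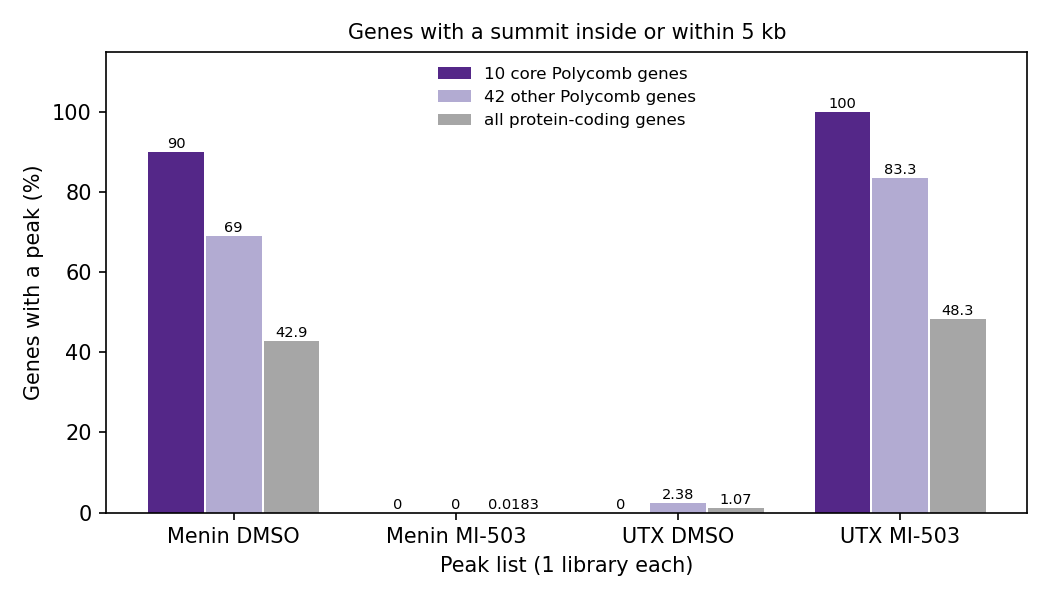
Bars give the percentage of genes with a summit inside or within 5 kb, for each of the 4 peak lists (1 library each, no error bars), among the 10 core Polycomb genes, 42 other Polycomb genes and all protein-coding genes. The core genes reach 9 of 10 for Menin DMSO and 10 of 10 for UTX MI-503, and 0 of 10 in the other lists.

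Most of these peaks sat at the start of the gene. A summit lay within 1 kb of the annotated start at 8 of the 9 matched genes for Menin DMSO, where 33.5% of all protein-coding genes with a listed start had one. For UTX MI-503 this was 7 of 9, against 39.1%. Among the 8013 genes with a start window holding at least 17 CpG, the lowest number in the members, these shares were 59% (Menin DMSO) and 67.6% (UTX MI-503). This subset was chosen after the members' windows were seen. Bmi1 had no start peak in either list, and Cbx7 had one for Menin alone.

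The deposited fold of a peak is its read pileup plus 1 over the local background plus 1. In both long lists the fold and p-value of every peak gave back a whole number of reads at the summit, so the depth behind each value below is known. The 95% intervals are exact Poisson intervals on those reads. They cover counting error only and take no account of the summit being the highest point of its peak. The lowest background of the Menin DMSO list was 2.34 reads and that of the UTX MI-503 list 0.827 reads. The same number of reads thus gave a lower fold in the Menin list: 15 reads gave 4.80-fold for Menin at Ezh2, and 14 reads gave 8.21-fold for UTX at Eed. Folds and ranks are therefore described within a list. Ranks are by −log10 q, among 11195 Menin DMSO and 14231 UTX MI-503 peaks.

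**Figure D2:**
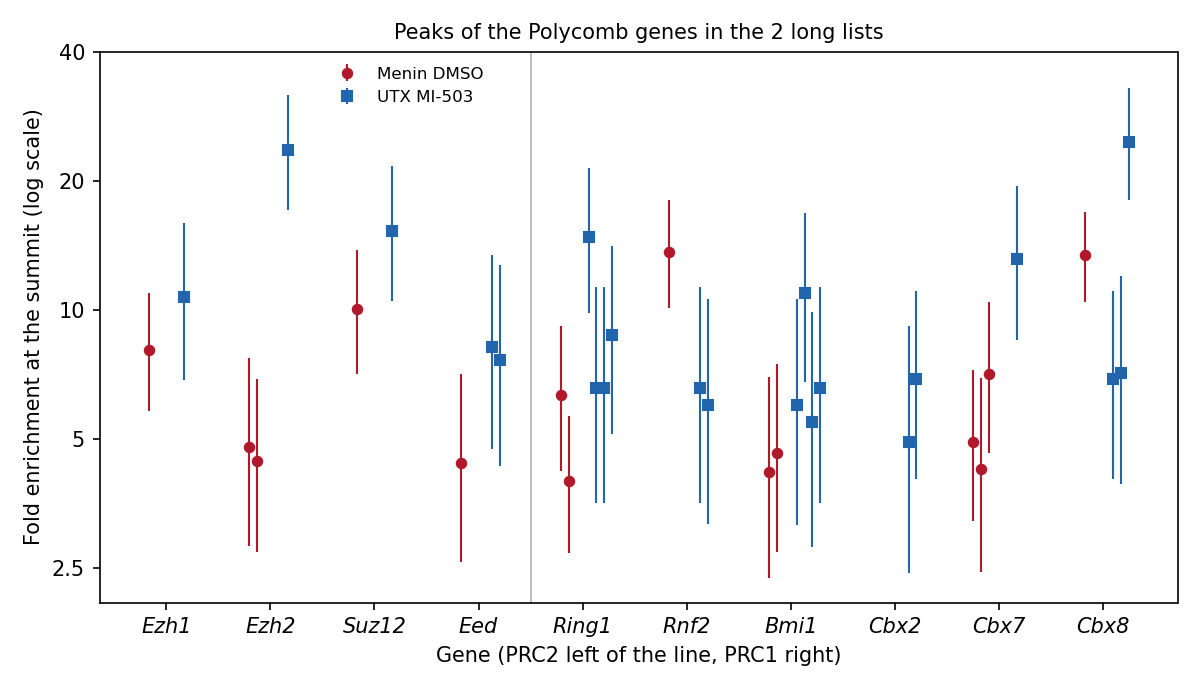
Fold enrichment at the summit (log axis) of every peak of the 10 genes in the Menin DMSO list (circles) and the UTX MI-503 list (squares), with exact Poisson 95% intervals for counting error only. Cbx8 and Ezh2 hold the highest UTX peaks (24.6-fold and 23.5-fold), while Rnf2 and Cbx8 hold the highest Menin peaks (13.6-fold and 13.4-fold).

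Ezh2, the main catalytic subunit of PRC2 in dividing cells, had one of the higher UTX peaks and only low Menin peaks. The UTX MI-503 peak (mm10, chromosome 6, 47594956 to 47595417) reached 23.5-fold (17.1 to 31.6) on 42 reads over a background of 0.827, with a −log10 q of 52.1 and rank 603. Its summit lay 119 bp upstream of the Ezh2 start and 60 bp from the start of F830010H11Rik, a long noncoding RNA gene. That gene overlaps Ezh2 on the side where Ezh2 starts. The Menin DMSO peak over the same place (47595020 to 47595418) had 4.46-fold enrichment (2.74 to 6.91) on 18 reads and rank 9033. A further Menin peak lay 583 bp downstream of the start (47594323 to 47594547), at 4.80-fold (2.82 to 7.71) on 15 reads, and no UTX peak overlapped it. Both Menin peaks were below the list's median of 5.87-fold, and the UTX peak was well above its list's median of 7.11-fold. In the window printed above, the UTX summit lay 29 bp upstream of the first base of the farthest CCAAT copy.

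Ezh1, the alternative catalytic subunit, which prevails in resting cells, had 1 peak of each kind on the same spot. Menin DMSO (chromosome 11, 101226331 to 101226641) gave 8.08-fold (5.83 to 10.9) on 40 reads, at rank 3212. UTX MI-503 (101226319 to 101226638) gave 10.7-fold (6.88 to 15.97) on 22 reads, at rank 3733. The summits were 1 bp apart, 7 and 8 bp upstream of the start. In contrast to Ezh2, both peaks of Ezh1 stood above the median fold of their own list, and its window held no CCAAT.

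Suz12, the scaffold on which PRC2 assembles, had the highest Menin peak among the PRC2 genes. That Menin DMSO peak (chromosome 11, 79992831 to 79993291) reached 10.0-fold (7.11 to 13.8) on 36 reads, at rank 2917. The UTX MI-503 peak (79992657 to 79993344) reached 15.3-fold (10.5 to 21.6) on 30 reads, at rank 1862, and at 688 bp was the widest UTX peak of the 10 genes. The summits lay 47 and 68 bp upstream of the start, inside the window printed above, with the CCAAT copy between them.

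Eed, which binds the methylated histone tail and stimulates the enzyme, had the lowest Menin fold of the 9 genes when each is taken at its highest peak. Menin DMSO (chromosome 7, 89980530 to 89980753) gave 4.41-fold (2.59 to 7.10) on 15 reads, at rank 9932, with its summit 320 bp inside the gene. UTX MI-503 had a pair of peaks on either side of the start. The one inside the gene (89980644 to 89980924) gave 8.21-fold (4.74 to 13.4) on 14 reads, at rank 5930, with its summit at 183 bp. The one upstream (89980938 to 89981403) gave 7.66-fold (4.34 to 12.7) on 13 reads, with its summit 310 bp before the start, and no Menin peak overlapped it. The Eed peaks were thus less enriched than those of Suz12 in both lists, although the intervals overlap in the UTX list.

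Among the PRC1 enzymes, Ring1 and Rnf2 encode alternative ubiquitin ligases, and their peaks differed in order between the lists. Rnf2, also called Ring1B, had the highest Menin fold of the 10 genes: 13.6-fold (10.1 to 18.01) on 47 reads, at rank 1598 (chromosome 1, 151500844 to 151501255), with the summit 27 bp upstream of the start. UTX MI-503 had its summits on either side of that Menin summit and both were low. One (151500670 to 151500870) gave 6.57-fold (3.55 to 11.3) on 11 reads and lay 247 bp inside the gene, and the other (151501068 to 151501247) gave 6.02-fold (3.17 to 10.6) on 10 reads and lay 119 bp upstream. Rnf2 was the 1 gene of 9 where the highest Menin fold exceeded the highest UTX fold. In the whole table the UTX fold was the higher in 78.96% of 8321 genes with both, so the 8 of 9 in that direction is near what all genes show. The backgrounds of the lists differ, so this order of folds does not show which protein was the more enriched. In reads at the same peaks, UTX was the higher at Ezh2 (42 and 15) and Bmi1 (19 and 15) alone. Ring1 had 26 in each list, and Menin was the higher at the remaining genes.

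Ring1, also called Ring1A, had both proteins on its start. Menin DMSO (chromosome 17, 34024365 to 34024772) gave 6.34-fold (4.22 to 9.17) and UTX MI-503 (34024455 to 34024727) gave 14.8-fold (9.84 to 21.4), each on 26 reads at the summit. The summits were 8 bp apart and lay 50 and 58 bp inside the gene. These ranked 5571 and 2226 in their lists. The other peaks of Ring1 belong to crowded ground: a 6.57-fold UTX peak 410 bp upstream had its summit in Mir219a-1, a microRNA gene, and 1 Menin peak (3.99-fold) and 2 UTX peaks (8.76-fold and 6.57-fold) were nearest to the start of the neighbour H2-Ke6.

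Bmi1, the RING partner that activates RNF2 within PRC1, had no peak of either protein at its own start, in a window with 6 GC boxes. The 2 Menin DMSO peaks lay 4303 and 4690 bp upstream, at 4.64-fold (15 reads) and 4.20-fold (13 reads). Of the 4 UTX MI-503 peaks, 3 lay on the same stretch, the highest (chromosome 2, 18672272 to 18672640) at 10.9-fold (6.81 to 16.8) on 19 reads with rank 3870. Its summit was 4552 bp upstream of Bmi1 and 31 bp from the start of Commd3, the neighbouring gene. The summits of these 5 peaks were nearest to the starts of Commd3 or of the noncoding gene Gm33355. The remaining UTX peak, 6.57-fold on 11 reads, lay 3834 bp past the other end, inside Gm46725. None of the Bmi1 peaks was inside the gene or nearest to its start, so the gene enters the counts through its neighbours.

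The chromobox genes differed widely among themselves. Cbx8 had the highest UTX peak of all (chromosome 11, 119040982 to 119041612), at 24.6-fold (18.04 to 32.9) on 44 reads, with a −log10 q of 55.4 and rank 488. Its Menin DMSO peak (119040673 to 119041482) was the widest of the members, at 810 bp, and gave 13.4-fold (10.4 to 17.0) on 67 reads, at rank 954. The 2 summits were 21 bp apart, 225 and 246 bp upstream of the start, 5 and 26 bp upstream of the farther CCAAT copy. A lower UTX peak of 7.11-fold on 12 reads lay 195 bp inside the gene, under the same Menin peak.

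Cbx2, the neighbour of Cbx8 on chromosome 11, had no Menin peak. A UTX MI-503 peak inside it (119023355 to 119023551) had 4.92-fold enrichment (2.44 to 9.17) on 8 reads and rank 13369. Its summit, at 119023379, was 460 bp from the start of the noncoding gene Gm35829, which overlaps Cbx2. It was closer still to the lower boundary of Cbx2 itself, which runs from 119023019 to 119031275. With no matched start for Cbx2, the distance to its own start is not given, and this peak may lie there. The other UTX peak (119034119 to 119034301), 6.90-fold on 15 reads, lay between Cbx2 and Cbx8, 2934 bp outside the one and 2094 bp outside the other, and counts for both. Peaks of UTX without Menin under this rule were found at 10.3% of all protein-coding genes.

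Cbx7 had Menin at its start and both proteins at a place inside the gene. The Menin peak at the start (chromosome 15, 79932657 to 79932880) gave 7.09-fold (4.65 to 10.4) on 24 reads, at rank 5381, with its summit 135 bp upstream, and a lower one of 4.26-fold on 14 reads lay 158 bp downstream. No UTX MI-503 peak overlapped either. The inner peaks lay 4761 bp (Menin, 79927769 to 79927983, 4.92-fold on 24 reads) and 4744 bp (UTX, 79927669 to 79928053) past the start, with summits 17 bp apart. The UTX peak there reached 13.1-fold (8.53 to 19.4) on 23 reads, at rank 2812, and was the only UTX peak of the gene. The gene table extends Cbx7 beyond this start with predicted transcripts, and exons were not told apart from introns.

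**Figure D3:**
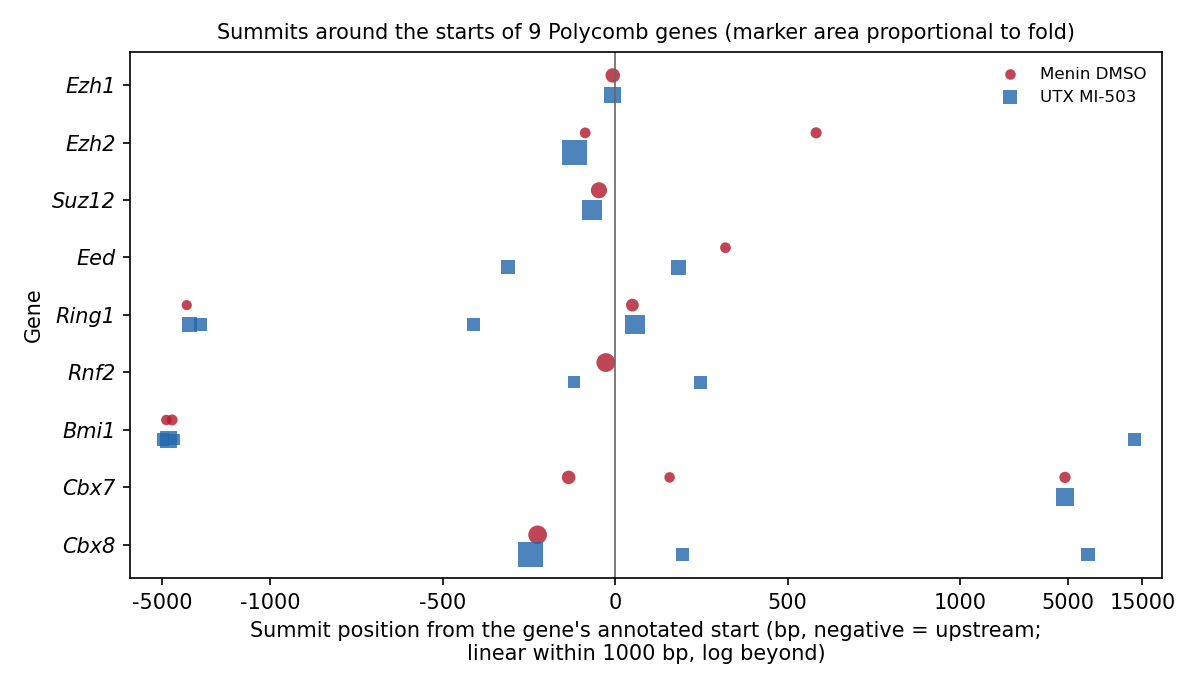
Each marker is a summit, placed by its distance in bp from the annotated start of its gene (negative is upstream, linear within 1000 bp and logarithmic beyond), with marker area proportional to fold, for Menin DMSO (circles) and UTX MI-503 (squares). Summits of both kinds crowd the start in Ezh1, Suz12 and Ring1, sit on either side of it for UTX in Eed and Rnf2, and are at least 4164 bp away in Bmi1.

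Ordered by the highest Menin DMSO fold, the genes were Rnf2, Cbx8, Suz12, Ezh1, Cbx7, Ring1, Ezh2, Bmi1 and Eed. By the highest UTX MI-503 fold they were Cbx8, Ezh2, Suz12, Ring1, Cbx7, Bmi1, Ezh1, Eed, Cbx2 and Rnf2. In both orders, the counting intervals of every pair of neighbours overlap, so no step between neighbours is larger than its error. The Menin intervals of Rnf2 and Cbx8 lay above those of Ring1, Ezh2, Bmi1 and Eed. The UTX intervals of Cbx8 and Ezh2 lay above those of Bmi1, Ezh1, Eed, Cbx2 and Rnf2. The genes placed most differently in the orders are thus Ezh2, high in UTX and low in Menin, and Rnf2, high in Menin and lowest in UTX. The median of the highest folds was 7.09 for Menin and 12.0 for UTX, next to 7.14 and 9.85 over all protein-coding genes with a peak.

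Of the 14 Menin DMSO peaks, 11 shared 1 bp or more with a UTX MI-503 peak, next to 66.4% over the whole Menin list. Of the 20 UTX MI-503 peaks, 13 shared ground with Menin DMSO, next to 53.4% over the whole UTX list. When an overlap had to cover 50% or more of each peak, these counts were 7 of 14 and 7 of 20. The 3 Menin peaks without UTX were the inner one of Ezh2 and the 2 at the start of Cbx7. At 7 of the 9 genes with both, the highest peaks of the lists overlapped each other, and at 4 of them (Ezh1, Suz12, Ring1 and Cbx8) the summits were within 100 bp. For the 50% rule and for these pairs of highest peaks, no share over all peaks or genes is given. Those counts describe the members only and cannot be called high or low. The lists come from different antibodies and different treatments, so an overlap does not show both proteins in the same cells. UTX had 2 or more peaks at 6 of the 10 genes, compared with 18.6% of all protein-coding genes, and Menin at 4, compared with 11.6%. Those shares include genes with no peak at all. Among protein-coding genes with a peak, 4070 of 10565 had 2 or more for UTX MI-503, and 2544 of 9381 for Menin DMSO. The 6 and 4 include Bmi1, whose peaks lay at its neighbours.

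Of the UTX peaks, 4 had exactly the same values (6.57-fold, 11 reads, rank 8560): one each at Rnf2 and Bmi1 and 2 at Ring1. They share them with 618 other peaks of the list, all with 11 reads. Ranks in this range therefore separate peaks by single reads. At the other end, none of the 10 genes was among the 217 highest peaks of either long list. The share of all genes was not counted for this cut, which leaves few genes of any kind. The UTX DMSO list, of that length, touched 1.07% of all protein-coding genes.

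Other genes of the Polycomb system were covered at similar shares. Of 42 such genes, 29 (69.0%) were in the Menin DMSO list, 35 (83.3%) in the UTX MI-503 list and 27 in both, against 42.9%, 48.3% and 38% of all protein-coding genes. Among 11 partners of PRC2, 9 had both. Jarid2, which helps PRC2 to reach chromatin, had 9.26-fold Menin and 9.71-fold UTX. Aebp2 had 5.61-fold and 7.11-fold. The Polycomb-like genes Phf1 (20.2-fold and 31.4-fold) and Mtf2 (10.2-fold and 12.3-fold) had both, as did Phf19 (27.7-fold and 10.4-fold). Rbbp4, a histone chaperone gene, had 8.16-fold and 14.2-fold. Epop had UTX alone and Ezhip, an inhibitor of PRC2, neither.

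Phf1 was the only one of the 42 with a UTX DMSO peak (6.75-fold, rank 183 of 217), but that peak lay 13 bp from the start of its neighbour Cuta. The highest Menin and UTX MI-503 peaks counted for Phf1 were at Cuta as well, 56 and 38 bp from its start. At the start of Phf1 itself, Menin DMSO reached 13.4-fold and UTX MI-503 12.0-fold, with no UTX DMSO peak.

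Among 8 further genes of canonical PRC1, 5 had a Menin and 5 a UTX peak. Phc2 (7.32-fold and 8.32-fold), Phc3 (5.18-fold and 7.31-fold) and Pcgf2, a close relative of Bmi1 (12.6-fold and 17.5-fold), were among those with both. Phc1 had Menin alone, Cbx6 UTX alone, and Scmh1 and Scml2 neither. Of 13 genes of variant PRC1, which lack CBX proteins, 7 had a Menin and 11 a UTX peak. Pcgf5 had the highest Menin fold of all listed Polycomb genes, at 38.2-fold (rank 22), with 10.4-fold UTX. Pcgf1 (10.6-fold and 15.8-fold), Pcgf3 (21.3-fold and 17.5-fold), Kdm2b, which binds unmethylated CpG (9.71-fold and 6.02-fold), L3mbtl2 (5.37-fold and 11.04-fold) and Mga (8.08-fold and 21.5-fold) also had both. Auts2 had neither, Yaf2 had Menin alone at 5.59-fold, and Pcgf6, Rybp, Bcor, Bcorl1 and E2f6 had UTX alone, each at 7.18-fold or less.

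The PR-DUB complex removes the ubiquitin that PRC1 attaches. Of its 10 listed genes and partners, 8 had a Menin and 9 a UTX peak. Bap1, the deubiquitinase, had 22.6-fold Menin and 16.3-fold UTX. Asxl1 (6.11-fold and 7.90-fold) and Asxl2 (12.7-fold and 13.0-fold), which activate it, had both, as did Foxk1 (12.5-fold and 27.4-fold), Mbd5 (19.5-fold and 25.3-fold) and Mbd6 (7.98-fold and 19.5-fold). Asxl3 had neither. Several of these values belong to places next to a neighbour's start: Ap5z1 for both Foxk1 peaks, Orc4 for Mbd5, Ddit3 for Mbd6, and Cisd3 and Psmb3 for Pcgf2, each within 139 bp. These are not all such cases. The Menin peak of Asxl2 was 21 bp from the start of 1110002L01Rik, and the Phc2 peaks 98 and 179 bp from that of Gm33712. For Aebp2, the highest Menin peak lay outside the gene, nearest to Gm30215. The highest Phf19 peaks lay 8823 and 8716 bp from its start, and the highest Kdm2b UTX peak was nearest to Gm33118 (9285 bp). The highest peaks of Pcgf5, Bap1 and Mga were nearest to their own gene's start. None of the 42 genes had a Menin MI-503 peak.

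**Figure D4:**
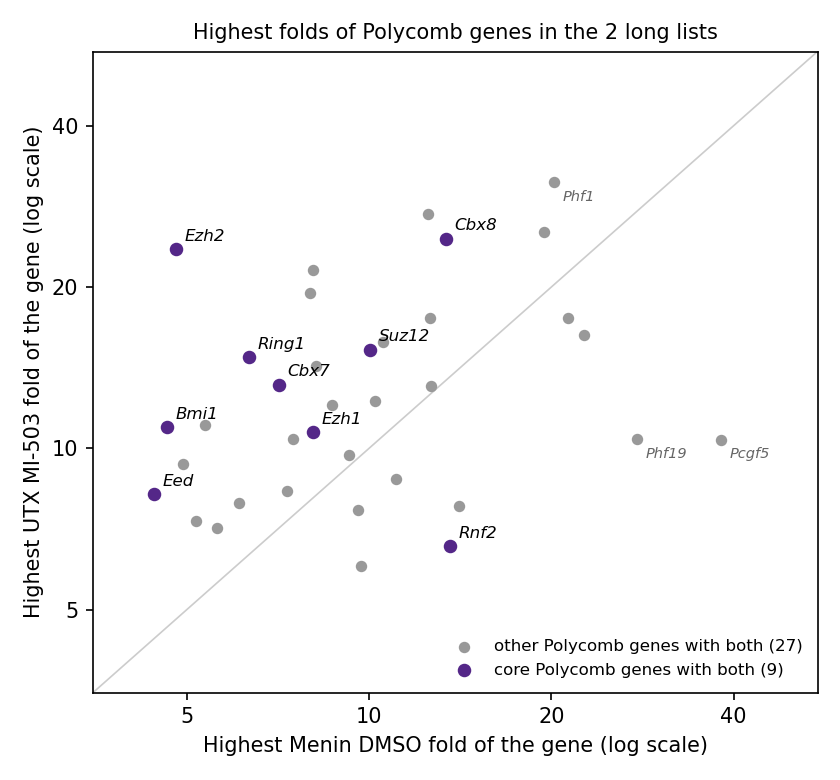
Each point is a gene with peaks in both long lists, placed by its highest Menin DMSO fold and highest UTX MI-503 fold (log axes; the line marks equal folds), with 9 core and 27 other Polycomb genes. Ezh2 stands high on the UTX axis and low on the Menin axis (23.5-fold and 4.80-fold), while Rnf2 lies below the line (6.57-fold and 13.6-fold). The backgrounds of the lists differ, so a place above or below the line does not show which protein was the more enriched.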

How the data were processed

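Menin and UTX were immunoprecipitated from WT-MA9 cells, 1 library per antibody and treatment. Peaks were called with MACS2 on mm10, per the submitters' processing notes; its version, threshold and aligner were not given in the sources used here. The deposited values of each peak are the fold at the summit (a ratio of pileup to local background), its −log10 p-value and −log10 q, the summit offset, and a score, equal to 10 times −log10 q with the decimals dropped. Positions are printed from 1.

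Genes came from RefSeq (GRCm38.p6, the assembly of mm10) and starts from its promoter windows, listed for 17492 protein-coding genes. The members and gene lists were chosen with earlier results of these data known. All members were named; of the other lists, up to 6 genes with both peaks in list order and every gene without a peak, and the genes with 1 kind of peak were added after their values were seen. The values of 1 listed gene are not reported here. For each peak the whole number of reads was sought that gives both fold and p-value. It was found within 0.001 of −log10 p in 100% of the Menin DMSO and UTX MI-503 peaks, but in 0% and 0.461% of the short lists, for which no reads are given. On simulated peaks, 100% of 500 were recovered for each long list. Those peaks were made with the same formulas, so this checks the calculation and not whether deposited peaks follow them. Total read numbers are unknown. Alternatives covered windows, thresholds, overlap, list length and ranking. Python 3.11.15, pandas 2.3.3 and scipy 1.17.1 were used.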

Additional observations from a re-analysis of the deposited data

How the results depend on the processing

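Of 53 alternatives to a reported count or rank above 0, 46 were within 1.5 times of it. The 26 alternatives to a reported 0, in the short lists, also gave 0, and most of them could give nothing else. With the summit required inside the gene, 4 members had a Menin DMSO peak in place of 9. The summits of Ezh1, Suz12, Rnf2 and Cbx8 lay 7 to 225 bp outside the gene, and those of Bmi1 at least 4303 bp. Among the 217 highest peaks of each long list, 0 members had a Menin DMSO peak and 0 had UTX MI-503, a cut that leaves few genes of any kind. With at least 50% of both peaks shared, 7 Menin peaks were overlapped in place of 11, and 7 UTX peaks in place of 13. Ranked by fold, the highest Menin peak of Rnf2 was at 1011 in place of 1598, and the other 18 of 19 ranks were within 1.5 times. With a 1 kb window, 0 other Polycomb genes had a UTX DMSO peak in place of 1. An alternative chosen after seeing the data kept peaks inside a member or nearest to its start. It left 8 members with a Menin DMSO peak and 9 with a UTX MI-503 peak, without Bmi1. For this alternative and for the summit inside the gene, no share of all protein-coding genes was counted. Those counts cannot be called high or low. The lists have no replicates, and the short lists give no reads, so what they could have missed was not estimated.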
